A study of Saccharomyces cerevisiae with 36 samples.

Results

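The cell wall stress sensor genes of the Wsc and Mid families were followed in yeast cells exposed to 6 pesticides. The members are WSC2 (YNL283C), WSC3 (YOL105C), WSC4 (YHL028W), MID2 (YLR332W) and MTL1 (YGR023W), 5 of the 5449 genes measured. They were taken by symbol from the array annotation, and each is represented by a single probe set. The set was chosen by the measured IC20 against control changes of WSC4, which was lower with some of the pesticides, so the WSC4 values with the pesticides are a description, with no test. The other 4 genes were listed by family and were tested.

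All cultures were of the haploid strain BY4741, a MATa laboratory strain with his3, leu2, met15 and ura3 mutations, grown exponentially in minimal medium. A culture was kept for 2 h with the IC20 of 1 pesticide, a dose described as equally toxic between pesticides, or without it. The herbicides were the chloroacetanilides S-metolachlor (220 mg/L) and alachlor (200 mg/L), the phenylurea diuron (80 mg/L) and MCPA-ME (115 mg/L), a methyl ester of MCPA. The others were the carbamate insecticide carbofuran (160 mg/L) and the anilinopyrimidine fungicide pyrimethanil (20 mg/L). Every experiment had separate untreated cultures, which gives 12 groups of 3 arrays labelled as biological replicates. A (2) in the titles of the alachlor IC20 arrays is left unexplained by the labels.

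Sensors of the Wsc and Mid families span a membrane once and carry a long outer region rich in serine and threonine that is heavily mannosylated. When the cell wall is stretched or damaged, the plasma membrane sensors pass a signal through the exchange factor Rom2 to the GTPase Rho1, the protein kinase Pkc1 and a MAP kinase cascade that ends in Slt2 and the transcription factor Rlm1. Slg1 (also called Wsc1) and Mid2 are the best known of these sensors, Wsc2 and Wsc3 are a duplicated pair, and Mtl1 is the relative of Mid2. Wsc4 stands somewhat apart, since it is known as a protein of the endoplasmic reticulum membrane with a role in protein translocation and overlaps only in part with the others in function. SLG1 (YOR008C) is not a listed member, but it was measured and is given beside them.

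Intensities are probe set values in array units on a linear scale, for which array medians lay between 1319.6 and 1511.4. No value of the 5 members or of SLG1 was under the floor of 32 that was applied before log2 was taken, and the lowest was 91.46. An intensity depends on the probes, so levels are compared between groups for 1 gene and not between genes. Log2 changes are IC20 minus own control with the standard error (SE) of limma's fit over all 36 arrays, and a gene was called where limma's p, adjusted by Benjamini-Hochberg over all 5449 genes, was under 0.05. Strain markers were as labelled for most genes: the MATa-specific genes MFA1, MFA2, STE2, STE6 and BAR1 read at medians from 5682 to 21380 over 36 arrays, MF(ALPHA)1 at 22.5, and the deleted genes MET17 and URA3 at 20.9 and 14.4. The deleted gene LEU2 read higher, at a median of 98.65 (66.97 to 194.6), as did the MATalpha-specific genes MF(ALPHA)2 at 127.5 and STE3 at 141.3. A reading above the floor of 32 is therefore not by itself a sign of RNA. SAG1, also MATalpha-specific, had a median of 808.8, and HIS3 one of 8067. The his3 allele of this strain is a partial deletion, and where the HIS3 probes lie is not known here. The MCPA-ME IC20 group had the widest spread of the 12 (residual SD 0.35 on the log2 scale, against 0.10 to 0.26 in the others), and its array 2 lay farthest from its group.

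WSC4 had less RNA with every one of the 6 pesticides than in the matching controls, and in no experiment did the 3 IC20 arrays overlap the 3 controls. With S-metolachlor the controls read 1066, 1727 and 1317 and the IC20 arrays 91.5, 112.3 and 96.5. That is a log2 change of -3.75 ± 0.30 (SE, n = 3 and 3), a level 13.5-fold lower. These IC20 readings lay near the median of the deleted gene LEU2 (98.65 over 36 arrays). Since an intensity depends on the probes, how much WSC4 RNA they stand for is not known. With alachlor the controls read 649, 739 and 902.3 and the IC20 arrays 238.1, 202.7 and 177.1. The change was -1.89 ± 0.30, a level 3.7-fold lower. The alachlor IC20 readings lay within the range of the MATalpha-specific gene STE3 (63.87 to 249.6 over 36 arrays), so the same limit holds for them. Counted from the lowest change of the 5449 genes, WSC4 came in place 2 with S-metolachlor and with alachlor. It came in place 7 with carbofuran, 14 with MCPA-ME, 97 with diuron and 118 with pyrimethanil. These places rest on the changes for which WSC4 was chosen, and nothing is read from them. The doses of the related herbicides S-metolachlor and alachlor differ, 220 and 200 mg/L, so their changes stand side by side and were not compared.

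**Figure D1:**
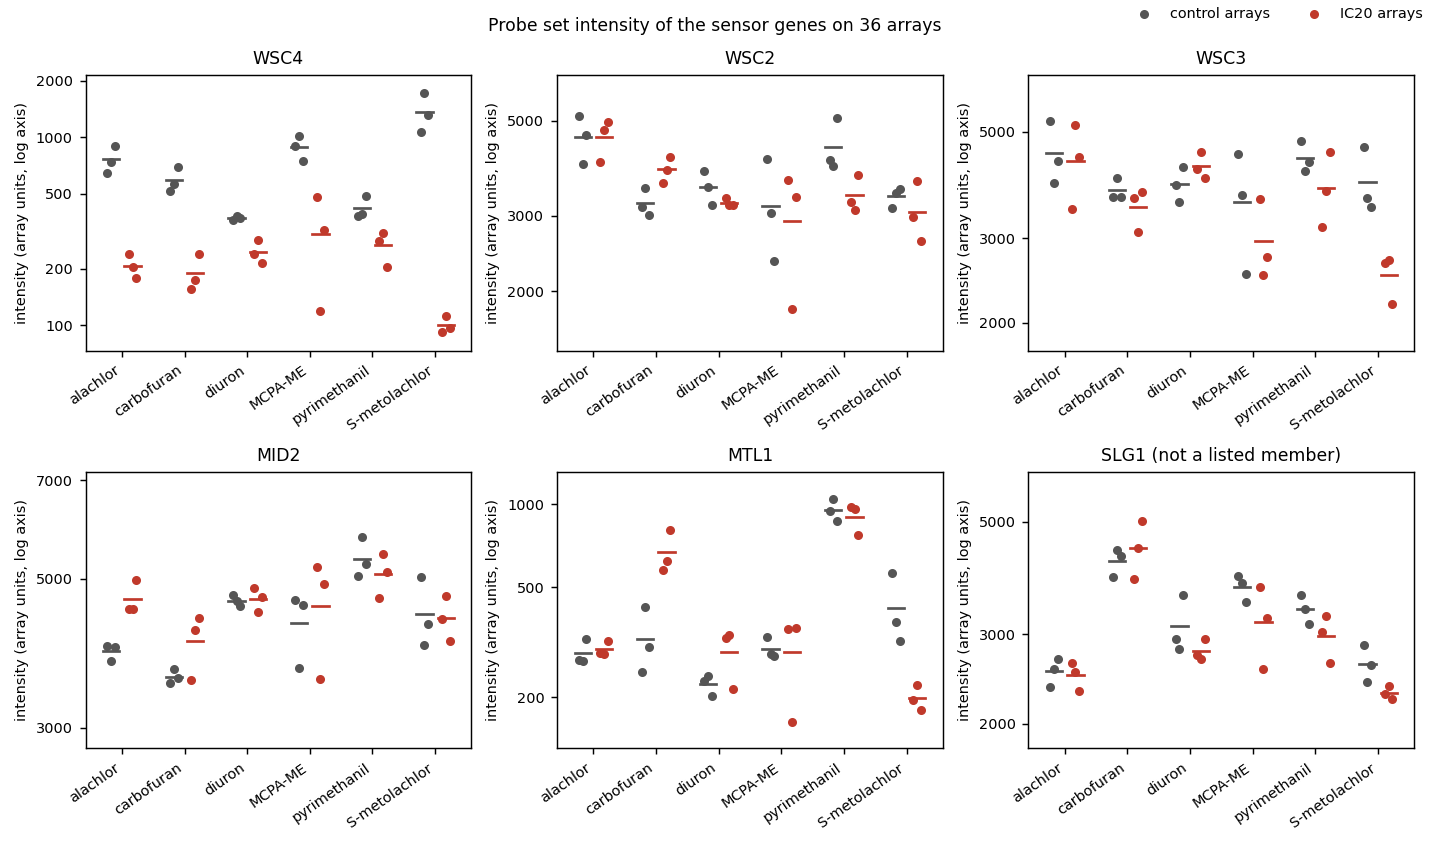
Intensity (array units, log axis) of the 5 members and of SLG1 on each of the 36 arrays, by experiment, with control arrays in grey, IC20 arrays in red and a bar at each mean of 3. The red points of WSC4 lie below the grey ones in all 6 experiments, MTL1 is split upward with carbofuran and downward with S-metolachlor, and the groups of MID2, WSC2 and SLG1 mostly lie side by side.

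Carbofuran and MCPA-ME gave changes close to that of alachlor. With carbofuran the WSC4 controls read 518.9, 561.5 and 690.6 and the IC20 arrays 156.1, 173.5 and 239.4 (-1.65 ± 0.30, 3.14-fold lower). These IC20 readings too lay within the STE3 range of 63.87 to 249.6. With MCPA-ME the controls read 902.4, 1017 and 743.4 and the IC20 arrays 479.4, 119.3 and 320.7. The change of -1.74 ± 0.30 rests in part on IC20 array 2, the lowest of the 3, and was -1.17 without it. The SE is taken from the spread in all 12 groups and is the same for every WSC4 change. The log2 SD of WSC4 was 1.03 in the MCPA-ME IC20 arrays, against 0.04 (diuron controls) to 0.35 (S-metolachlor controls) in the other groups.

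Diuron and pyrimethanil gave the smallest differences. With diuron the WSC4 controls read 362.8, 382.5 and 371.8 and the IC20 arrays 238.7, 283.2 and 213.8 (-0.61 ± 0.30). With pyrimethanil the controls read 380.0, 388.2 and 487.3 and the IC20 arrays 281.9, 309.8 and 204.8 (-0.67 ± 0.30). Both sets of IC20 arrays stayed in the range of the IC20 arrays of the other experiments, while all 6 control arrays lay below every control array of the other 4 experiments.

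The same is seen when all arrays are set side by side. Over the 18 IC20 arrays WSC4 read from 91.5 to 479.4 with a median of 209.3, and over the 18 controls from 362.8 to 1727 with a median of 669.8. Of the 18 IC20 arrays 17 lay below the lowest control, and the exception was MCPA-ME IC20 array 1. All IC20 arrays below all own controls in every one of the 6 experiments was a pattern of 16 of the 5449 genes (0.294%). In a single experiment this order was far more common: it held for 13.6% of all genes with alachlor, 24.2% with carbofuran, 19% with diuron, 7.98% with MCPA-ME, 24.8% with pyrimethanil and 30.4% with S-metolachlor. These shares use the comparisons that led to the choice of WSC4 and nothing is read from them.

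The WSC4 level also varied between the untreated cultures. These arrays enter the changes by which WSC4 was chosen, so the control levels too are a description, with no test. The control means were 372.4 ± 9.87 for diuron (SD, n = 3), 418.5 ± 59.7 for pyrimethanil, 590.4 ± 89.4 for carbofuran, 763.4 ± 128 for alachlor, 887.4 ± 137 for MCPA-ME and 1370 ± 334 for S-metolachlor. In this order the arrays of diuron and pyrimethanil overlapped, as did those of carbofuran and alachlor and those of alachlor and MCPA-ME, while pyrimethanil lay wholly below carbofuran and MCPA-ME wholly below S-metolachlor. The highest mean was 3.68 times the lowest. Control groups and experiments cannot be told apart.

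Since the controls differ, the size of a WSC4 change depends on the control it is set against. Against all 18 controls as 1 group the change was -1.43 with diuron in place of -0.61, -1.33 with pyrimethanil in place of -0.67 and -2.72 with S-metolachlor in place of -3.75, and it was -1.69 with alachlor, -1.82 with carbofuran and -1.32 with MCPA-ME. The IC20 means themselves were in the order S-metolachlor (100.1 ± 10.9), carbofuran (189.7 ± 43.9), alachlor (206 ± 30.6), diuron (245.2 ± 35.1), pyrimethanil (265.5 ± 54.4) and MCPA-ME (306.4 ± 180). S-metolachlor lay wholly below carbofuran, and every other neighbouring pair in this order overlapped.

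The relatives of WSC4 did not show its pattern in these values. Over WSC2, WSC3, MID2 and MTL1 and the 6 pesticides, 24 tests in all, limma called 1 higher and 2 lower, or 4.17% and 8.33%, against 9.48% and 10.6% over all genes and pesticides. The 3 and 3 arrays did not overlap for 6 of the 24. These were MID2 with alachlor, where 30.8% of all genes did not overlap, WSC2 and MTL1 with carbofuran (49.8%), WSC2 with pyrimethanil (41.6%), and WSC3 and MTL1 with S-metolachlor (54.9%). With diuron and MCPA-ME it was 0 of 4, where 40.2% and 18.9% of all genes did not overlap. The lowest change of any of the 4 lay above that of WSC4 in each experiment, by 0.30 on the log2 scale with pyrimethanil, 0.49 with diuron, 1.49 with MCPA-ME, 1.53 with carbofuran, 1.83 with alachlor and 2.71 with S-metolachlor. Within an array, log2 WSC4 minus the mean log2 of the other 4 was lower with the pesticide than in the controls, with a difference from -0.48 (pyrimethanil) to -3.30 (S-metolachlor), and the 3 and 3 arrays did not overlap in any experiment. These differences rest on the values for which WSC4 was chosen and have no test.

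**Figure D2:**
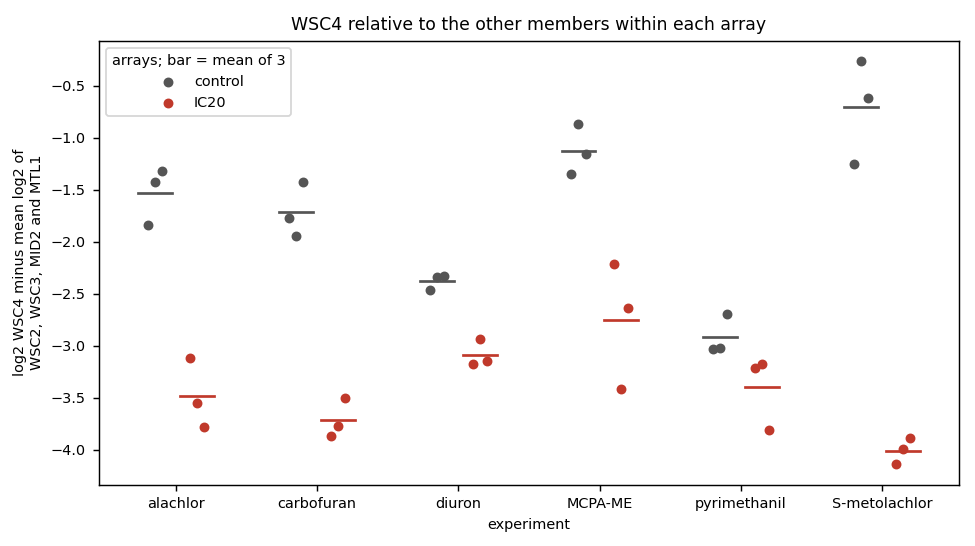
Log2 WSC4 minus the mean log2 of WSC2, WSC3, MID2 and MTL1 within each array, for the controls (grey) and IC20 arrays (red) of the 6 experiments, with a bar at each mean of 3. The red points lie below the grey ones in every experiment, with the widest gap for S-metolachlor and the narrowest for pyrimethanil; the height of the points depends on the probes, so only differences between groups can be read.

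MTL1, the relative of MID2, was the member other than WSC4 that moved most, and it moved in both directions. With carbofuran the controls read 247.1, 423.7 and 303.6 and the IC20 arrays 577.9, 623.8 and 805.9. MTL1 rose by 1.06 ± 0.24 on the log2 scale, or 2.09-fold (SE, n = 3 and 3; limma adjusted p = 0.000895), and the groups did not overlap. It was the only one of the 4 relatives called higher with carbofuran, where 18.4% of all genes were called higher. With S-metolachlor the controls read 565.2, 373.4 and 320.8 and the IC20 arrays 194.8, 222.1 and 179.8, also without overlap. MTL1 fell by 1.04 on the log2 scale (SE 0.24), or 2.06-fold (limma adjusted p = 0.00231), where 14.4% of all genes were called lower. These IC20 readings lay within the range of the MATalpha-specific gene STE3 over 36 arrays (63.87 to 249.6). How much MTL1 RNA they stand for is therefore not known.

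The other 4 changes of MTL1 were not called. They were 0.05 (95% interval -0.44 to 0.54) with alachlor, 0.37 (-0.12 to 0.86) with diuron, -0.13 (-0.62 to 0.36) with MCPA-ME and -0.08 (-0.57 to 0.41) with pyrimethanil. With diuron, IC20 arrays 1 and 2 (326.9 and 337.3) lay above the 3 controls (228.6, 238.5 and 201.5) and array 3 (213.7) lay among them. The diuron controls and array 3 also lay within the STE3 range of 63.87 to 249.6. With MCPA-ME, IC20 arrays 1 and 3 (353.4 and 357.7) lay above the 3 controls (331.1, 287.6 and 281.5) and array 2 (163.5) below them, and the change was 0.25 without array 2. With arrays weighted by their fit MTL1 was called higher with diuron (0.49, adjusted p = 0.00576). The change differed between the 6 pesticides by limma's F test (adjusted p = 0.000832), which 43.3% of all genes passed.

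The MTL1 controls differed between experiments. The means were 222.8 ± 19.2 for diuron, 289.6 ± 31.2 for alachlor, 300.1 ± 27 for MCPA-ME, 324.8 ± 90.2 for carbofuran, 419.8 ± 129 for S-metolachlor and 949.4 ± 88.2 for pyrimethanil (SD, n = 3). Diuron lay wholly below alachlor and S-metolachlor wholly below pyrimethanil, and the neighbours between alachlor and S-metolachlor overlapped. Limma's F test among the 6 control groups gave an adjusted p of 7.19e-07, a test that 78.9% of all genes passed. The span of the MTL1 control means, 2.09 on the log2 scale, was exceeded by 86 of the 5449 genes, and the median gene had a span of 0.57. The diuron controls at its low end lay within the STE3 range of 63.87 to 249.6. The pyrimethanil IC20 arrays, at 973.2, 956.6 and 773.9, shared the high level of their controls.

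The MTL1 calls depend on the use of each experiment's own controls. Against all 18 controls as 1 group the rise with carbofuran was 0.86 (limma adjusted p = 0.0518) and the fall with S-metolachlor -0.88 (adjusted p = 0.06), neither called. In that comparison pyrimethanil turned from -0.08 to 1.30 and was called (adjusted p = 0.00827).

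**Figure D3:**
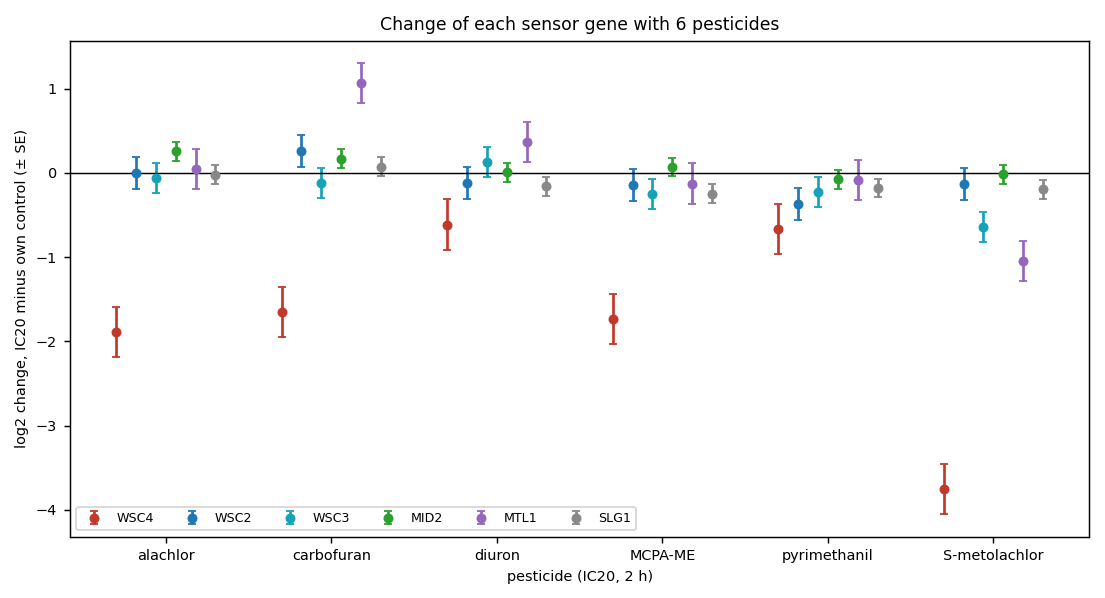
Log2 change (IC20 minus own control, ± SE of limma's fit, 3 and 3 arrays) of the 5 members and SLG1 with each pesticide. WSC4 is the lowest point with every pesticide, from -0.61 with diuron to -3.75 with S-metolachlor; MTL1 stands at 1.06 with carbofuran and -1.04 with S-metolachlor, and the remaining points lie between -0.64 and 0.37.

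WSC3, a plasma membrane sensor, fell with S-metolachlor. Its controls read 4659, 3643 and 3486 and its IC20 arrays 2663, 2697 and 2186, without overlap. The change was -0.64 ± 0.18 on the log2 scale, or 1.56-fold (SE, n = 3 and 3; limma adjusted p = 0.01). Without control array 1 the change was -0.51 (adjusted p = 0.0709) and without IC20 array 3 it was -0.54 (adjusted p = 0.0663), so the call needed both arrays. With the other 5 pesticides the changes of WSC3 lay from -0.25 (MCPA-ME) to 0.13 (diuron), none called, and the 3 and 3 arrays overlapped in each. The F test among the WSC3 controls gave an adjusted p of 0.341, with means from 3569 ± 991 to 4508 ± 693, and the F test of its change between pesticides one of 0.159. WSC3 set against all 18 controls as 1 group was also called lower with MCPA-ME (-0.44, adjusted p = 0.022), and its change then differed between pesticides (adjusted p = 0.00189). Without MCPA-ME control array 3 both calls were also made (-0.48 with MCPA-ME, adjusted p = 0.0498, and 0.0482 between pesticides). With arrays weighted by their fit the change of WSC3 differed between pesticides (adjusted p = 0.0134).

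WSC2, the duplicate of WSC3, was called with 0 of the 6 pesticides by limma, and 0 had an unadjusted p under 0.05. Its changes lay from -0.37 (pyrimethanil, 95% interval -0.76 to 0.02) to 0.26 (carbofuran, -0.13 to 0.65). With pyrimethanil the controls read 4054, 3926 and 5092 and the IC20 arrays 3240, 3103 and 3740, which did not overlap (limma adjusted p = 0.196). With S-metolachlor, where WSC3 fell, WSC2 stood at -0.13 (95% interval -0.52 to 0.26), and whether the duplicates differed there was not tested. With arrays weighted by their fit WSC2 was called lower with pyrimethanil (-0.48, adjusted p = 0.0013), and its change differed between pesticides (adjusted p = 0.00615, against 0.413 with equal weights). The WSC2 controls differed between experiments, with means from 3160 ± 867 (MCPA-ME) to 4578 ± 590 (alachlor) and an adjusted p of 0.0332 by limma's F test. That test was passed by 78.9% of all genes, and the WSC2 span of 0.56 on the log2 scale was near the 0.57 of the median gene. The call among the WSC2 controls was lost without any one of 6 control arrays (adjusted p from 0.0516 to 0.0973): alachlor 1 or 3, carbofuran 3, MCPA-ME 2 or 3, or pyrimethanil 3.

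MID2, a main sensor of wall stress and of mating pheromone, had small changes with the pesticides. Limma called 0 of its 6 changes, of which 1 had an unadjusted p under 0.05, and they lay from -0.08 (pyrimethanil, 95% interval -0.30 to 0.15) to 0.26 (alachlor, 0.03 to 0.49). With alachlor the controls read 3968, 3764 and 3954 and the IC20 arrays 4506, 4504 and 4969, without overlap, at a limma adjusted p of 0.234. With alachlor 3.52% of all genes were called higher. In the fit of the 6 alachlor arrays alone this change of 0.26 was called (adjusted p = 0.0465). With the carbofuran and MCPA-ME arrays farthest from their groups left out, MID2 was called higher with carbofuran at 0.26 (adjusted p = 0.0192) and its change differed between pesticides (adjusted p = 0.0327, against 0.388 with all arrays). With arrays weighted by their fit, MID2 was called higher with alachlor (0.22, adjusted p = 0.022), carbofuran (0.24, adjusted p = 0.0341) and MCPA-ME (0.32, adjusted p = 0.0117), and its change differed between pesticides (adjusted p = 0.0211). The MID2 controls ran from 3573 ± 86.5 (carbofuran) to 5350 ± 368 (pyrimethanil), with an adjusted p of 0.000992 among groups by limma's F test. That test was passed by 78.9% of all genes, and the MID2 span of 0.58 on the log2 scale was near the 0.57 of the median gene. The gene table supplied lists an open reading frame, JIP3, whose position overlaps MID2 and which was not analysed here.

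SLG1, the sensor also known as WSC1, had changes from -0.25 (MCPA-ME, 95% interval -0.48 to -0.02) to 0.08 (carbofuran, -0.16 to 0.31). Limma called 0 of the 6, and 1, with MCPA-ME, had an unadjusted p under 0.05; without MCPA-ME IC20 array 1 that change was -0.37 and called (adjusted p = 0.0219). With S-metolachlor its IC20 arrays, 2282, 2367 and 2234, lay below the controls, 2854, 2412 and 2615, at a limma adjusted p of 0.218. This order held for 30.4% of all genes with S-metolachlor. With arrays weighted by their fit SLG1 was called lower there (-0.17, adjusted p = 0.0446). The SLG1 controls ran from 2535 ± 160 (alachlor) to 4189 ± 265 (carbofuran), with an adjusted p of 1.41e-05 among groups by limma's F test. That test was passed by 78.9% of all genes, and 1851 of the 5449 genes had a larger control span than SLG1 (0.72 on the log2 scale). Against all 18 controls as 1 group SLG1 was called higher with carbofuran (0.46, adjusted p = 0.0116) and lower with S-metolachlor (-0.48, adjusted p = 0.0128). Its change then differed between pesticides by limma's F test (adjusted p = 0.00175, against 0.43 with own controls).

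The genes next to WSC4 on its chromosome did not share its values. OCA5 (YHL029C), on one side, had changes from -0.23 (diuron) to 0.51 (carbofuran), and the last was called higher (limma adjusted p = 0.00168). RIM101 (YHL027W), the gene of the regulator of the response to alkaline medium, lies on the other side and had changes from -0.10 (pyrimethanil) to 0.29 (alachlor). Limma called 0 of the 6 changes of RIM101, of which 2 had an unadjusted p under 0.05. With S-metolachlor, where WSC4 was 13.5-fold lower, OCA5 stood at -0.05 (adjusted p = 0.82) and RIM101 at 0.05 (adjusted p = 0.81). For WSC3 and MTL1 the nearest measured gene on either side was taken, which need not be adjacent. The locus tags of YOL107W and VMA7 (YGR020C) do not directly adjoin those of WSC3 (YOL105C) and MTL1 (YGR023W). Near WSC3, with S-metolachlor, NDJ1 went from 161.7 to 45.9 (-1.81, limma adjusted p = 3.91e-06) and YOL107W was not called (-0.33). Near MTL1, VMA7 and THG1 were not called with S-metolachlor (-0.17 and 0.14). With carbofuran, where MTL1 rose, VMA7 was called lower (-0.455, limma adjusted p = 0.0002575) and THG1 was not called (-0.02). Whether neighbours move together was not tested.

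The genes most like WSC4 came from outside the sensor family. Likeness was taken as the root mean square difference between the 12 group means of log2 intensity, each gene centred on its own mean, over 5328 genes. The nearest were YBL029W, an open reading frame without a standard name (difference 0.52, Pearson r = 0.89 over 12 group means), RPI1, a gene of a transcriptional regulator (0.53, r = 0.87), PHO3, a gene of an acid phosphatase (0.59, r = 0.84), PDR12, a gene of a pump for weak acid anions (0.64, r = 0.79), and BIO4, a gene of biotin synthesis (0.73, r = 0.87). For scale, WSC4 itself had a root mean square of 1.03 about its mean. WSC3 came in place 218 (0.94, r = 0.47), SLG1 in place 1754, WSC2 in 2385, MID2 in 3442 and MTL1 in 4978 (1.22, r = 0.06). The group means share arrays and experiments between genes, so these values describe likeness and carry no test.

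**Figure D4:**
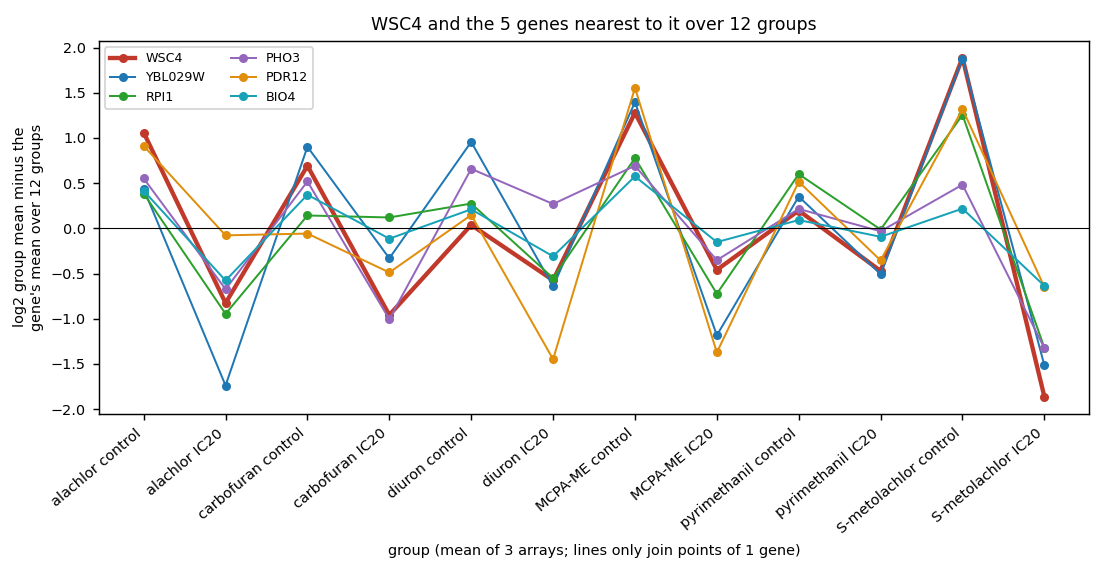
Log2 group mean minus the gene's own mean over the 12 groups, for WSC4 (thick red line) and its 5 nearest genes; each point is the mean of 3 arrays and lines only join points of a gene. WSC4 and YBL029W both peak in the S-metolachlor controls, and PHO3 and WSC4 meet in the carbofuran IC20 group, while RPI1 there stays at its control level.

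These genes were picked for their likeness to WSC4 in the same arrays, so their changes are a description, with no test. The log2 changes of YBL029W lay from -0.86 (pyrimethanil) to -3.39 (S-metolachlor). RPI1 differed most from WSC4 with carbofuran, where its controls averaged 832.4 ± 116 and its IC20 arrays 835 ± 224 (SD, n = 3), a change of -0.02. PHO3 was close to WSC4 with carbofuran, at -1.52, and PDR12 stood at -0.43 there. BIO4 ran from -0.19 (pyrimethanil) to -0.99 (alachlor), a narrower range than that of WSC4.

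Genes that act below the sensors in the cell wall integrity pathway were called about as often as other genes. Of 156 tests over 26 signalling genes, SLG1 among them, and 6 pesticides, 16 were called higher (10.3%) and 19 lower (12.2%), near the 9.48% and 10.6% over all genes. Their median log2 changes lay from -0.09 (S-metolachlor) to 0.17 (MCPA-ME), where the medians over all genes were -0.02 for both pesticides. KDX1, which encodes a kinase-like relative of Slt2 and is itself a target of Rlm1, was called higher with alachlor, diuron, MCPA-ME, pyrimethanil and S-metolachlor. With MCPA-ME it went from 213.3 ± 21.9 to 529.7 ± 91.5 (log2 change 1.30, limma adjusted p = 1.66e-09), and with diuron from 217.1 ± 20.5 to 338.3 ± 18.7 (0.64, adjusted p = 0.000144). The KDX1 calls with diuron, MCPA-ME and S-metolachlor (0.42) held in the 6 arrays of the pesticide alone. Those with alachlor (0.39) and pyrimethanil (0.33) were lost there (limma adjusted p = 0.0673 and 0.0792). In all, the alachlor call was lost under 9 alternatives, quantile normalization, median centring and single arrays left out among them. The pyrimethanil call was lost under 6, single arrays left out among them.

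MCPA-ME had 7 of the 26 signalling genes higher and 3 lower, against 9.97% and 8.61% of all genes. Besides KDX1 the largest were SLT2, the MAP kinase gene (0.75, limma adjusted p = 0.0008), and PKH2, which encodes a kinase that activates Pkc1 (0.56, adjusted p = 0.000514). In the 6 MCPA-ME arrays alone 1 was higher and 0 lower by limma, with 7 at an unadjusted p under 0.05, and SLT2 and PKH2 had adjusted p of 0.302 and 0.12. The remaining call was KDX1. With all 18 controls as 1 group 3 were higher and 4 lower, and without any one of MCPA-ME control arrays 1 and 2 and IC20 array 2 the count of lower calls was 1.

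Pyrimethanil had 7 of the 26 lower and 1 higher, against 9.71% and 6.39% of all genes. MKK1, a MAP kinase kinase gene (-0.59, limma adjusted p = 0.0121), PKH1 (-0.51, adjusted p = 0.0083) and RLM1 (-0.51, adjusted p = 0.0152) were the lowest. Without pyrimethanil control array 1 limma called 0 of the 26 in either direction, with 9 at an unadjusted p under 0.05, and without IC20 array 2 it called 0 higher and 3 lower. When set against all 18 controls as 1 group 5 were higher and 3 lower, and RLM1 was not called (-0.16).

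Carbofuran had 3 higher and 4 lower, against 18.4% and 23.7% of all genes, with SWI4, a transcription factor gene of the G1/S transition, at -0.99 (limma adjusted p = 0.00146), ZEO1, whose product binds Mid2, at -0.80 (adjusted p = 0.000329) and PTP3, a phosphatase gene, at 0.71 (adjusted p = 4.8e-05). In the 6 carbofuran arrays alone the counts were 1 and 2, and SWI4 was not among the calls (adjusted p = 0.0561). S-metolachlor had 2 higher and 4 lower, against 10.1% and 14.4%, with MKK2 at -0.61 (adjusted p = 0.00213). These counts were 1 and 1 without S-metolachlor IC20 array 3, 1 and 2 without control array 1, IC20 array 1 or IC20 array 2, and 3 and 2 without control array 2. Diuron had 2 higher and 1 lower, against 8.52% and 5.84%, with PTP3 at -0.72 (adjusted p = 9.89e-05), no longer called against all 18 controls as 1 group (-0.37). Alachlor had 1 higher and 0 lower, against 3.52% and 1.5%, with 9 at an unadjusted p under 0.05.

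For a list of cell wall and other genes known as targets of Rlm1, the members called with carbofuran, diuron and MCPA-ME were all higher. Of 20 listed genes 19 were measured. With carbofuran 6 were higher and 0 lower (median 0.10), with diuron 6 and 0 (median 0.18) and with MCPA-ME 5 and 0 (median 0.11), where the median of all genes lay between -0.02 and 0.00. Over all genes 18.4% were higher and 23.7% lower with carbofuran, 8.52% and 5.84% with diuron, and 9.97% and 8.61% with MCPA-ME. GSC2, a glucan synthase gene, rose with carbofuran from 2990 ± 208 to 6614 ± 435 (log2 change 1.15, limma adjusted p = 2.51e-08) and with diuron from 2947 ± 123 to 6450 ± 510 (1.13, adjusted p = 3.86e-08). SRL3 rose with MCPA-ME from 432.4 ± 111 to 2397 ± 527 (2.48, adjusted p = 2.44e-07) and PRM5, which encodes a membrane protein, from 2416 ± 258 to 4349 ± 180 (0.85, adjusted p = 8.46e-05). SRL3 and PST1 were also called higher with diuron (1.69 and 1.13) and with carbofuran (0.73 and 0.51). None of these was called against all 18 controls as 1 group, at 0.88 and 0.77 with diuron and 0.34 and -0.50 with carbofuran. In the 6 arrays of each pesticide alone the counts were 2 and 0 with carbofuran, 7 and 0 with diuron and 2 and 0 with MCPA-ME. Against all 18 controls as 1 group they were 2 higher and 2 lower with carbofuran, 4 and 0 with diuron and 2 and 0 with MCPA-ME. Leaving out carbofuran control array 1 gave 3 and 0, carbofuran IC20 array 3 gave 3 and 1, MCPA-ME control array 1 gave 8 and 0 and MCPA-ME control array 3 gave 5 and 3.

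With the chloroacetanilides the genes of the same list called lower included CWP1 and KTR2. CWP1, the gene of a wall mannoprotein, fell with alachlor from 3752 ± 208 to 1232 ± 97.2 (log2 change -1.61, limma adjusted p = 2.94e-07), and with S-metolachlor it went from 1755 ± 340 to 662.9 ± 33.7 (-1.39, adjusted p = 1.45e-06). KTR2, a mannosyltransferase gene, fell with alachlor (-0.55, adjusted p = 0.00106) and S-metolachlor (-0.81, adjusted p = 2.4e-06). In all, 1 of the 19 was higher and 2 lower with alachlor (5 and 2 in its 6 arrays alone), where 3.52% and 1.5% of all genes were. With S-metolachlor 1 was higher and 4 lower, where 10.1% and 14.4% of all genes were. Pyrimethanil had 2 higher and 4 lower, against 6.39% and 9.71% of all genes, with CHS3, a chitin synthase gene, at -0.49 (adjusted p = 0.009). That balance depends on single arrays and on the controls: without control array 3 there were 2 higher and 0 lower, without IC20 array 2 there was 1 of each, and against all 18 controls as 1 group 10 were higher and 0 lower.

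Of the 6 protein O-mannosyltransferase genes, whose products begin the sugar chains on the sensors, 3 were called lower with pyrimethanil, against 9.71% of all genes. PMT1 went from 5275 ± 497 to 3450 ± 342 (log2 change -0.61, limma adjusted p = 0.000933) and PMT2 from 6835 ± 853 to 4615 ± 648 (-0.57, adjusted p = 0.00897). Without pyrimethanil control array 1 PMT2 was not called, and PMT5 (-0.41, adjusted p = 0.0401) lost its call under 8 alternatives. PMT2 was also called lower with S-metolachlor (-0.45, adjusted p = 0.0239), a call lost without any one of 4 arrays, and PMT3 higher with carbofuran (0.61, adjusted p = 0.00215), the latter not called against all 18 controls as 1 group (0.24).

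Among 5 other plasma membrane sensor genes, those for high osmolarity and filamentous growth, limma called 7 of 30 tests lower (23.3%, against 10.6% over all genes) and 0 higher. MSB2, a mucin-like sensor gene, was lower with carbofuran (-0.46, limma adjusted p = 0.0076), pyrimethanil (-0.58, adjusted p = 0.00418) and S-metolachlor (-0.52, adjusted p = 0.00635). SHO1, the gene of an osmosensor, was lower with S-metolachlor from 2675 ± 97.3 to 2163 ± 120 (-0.31, adjusted p = 0.00111). These changes were smaller in size than those of WSC4 in the same experiments, but with pyrimethanil MSB2 (-0.58) lay within 1 SE of WSC4 (-0.67 ± 0.30). The WSC4 values are those for which it was chosen, and the difference was not tested. In each pesticide's own 6 arrays 4 of the 30 were called. The calls of SHO1 with diuron (-0.19) and HKR1 with pyrimethanil (-0.36) were lost under 11 and 8 alternatives, and that of SHO1 with pyrimethanil (-0.28) in the 6 arrays alone.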

How the data were processed

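Gene expression was measured on 36 Affymetrix Yeast Genome 2.0 arrays. The authors deposited probe set intensities made with Affymetrix Expression Console, per the submitters' processing notes, with normalization and probe summary not given in the sources used here. Of 5716 probe sets 5498 had a single gene in the annotation supplied and 218 had none; where a gene had several (47 genes) the one with the highest mean was kept, and 12 symbols were updated through the gene identifier. Neighbouring genes, meaning the nearest measured gene on either side, were taken from a RefSeq gene table. Its coordinates are not printed because the files name no build. Values under 32 were set to 32 before log2 was taken. limma 3.58.1 in R 4.3.3 fitted 1 mean per group over all arrays (24 residual degrees of freedom), two-sided, with Benjamini-Hochberg adjustment over 5449 genes per contrast, after a test on simulated data with known changes. Members, lists and alternatives were chosen with earlier results of these data known. Named genes are the members, SLG1, the 5 genes nearest to WSC4 and the chromosomal neighbours of WSC4, WSC3 and MTL1. Some of the called list members with large changes, and strain markers, are also named. Array precision is limited by 3 arrays a group. Equal replicate numbers of control and IC20 arrays correlated above 0.1 in every pair for diuron (0.35 to 0.40) and pyrimethanil (0.17 to 0.38) and not for the other 4 pesticides.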

Additional observations from a re-analysis of the deposited data

Results flagged for a closer look

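The change of MTL1 differed between the 6 pesticides by limma's F test (adjusted p = 0.000832), with a rise of 1.06 on the log2 scale with carbofuran, a change of -1.04 with S-metolachlor and the other 4 from -0.13 to 0.37. In the alternatives tried that keep 6 changes in 1 fit, leaving out single arrays included, the adjusted p of this test stayed under 0.05.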

How the results depend on the processing

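All 6 WSC4 changes kept their sign under every alternative that gave a value. Against all 18 controls as 1 group they moved beyond the spread between replicates with diuron (-1.43), pyrimethanil (-1.33) and S-metolachlor (-2.72). WSC4 and MTL1 are among the dimmest 25% of genes and have no value with those left out. Of the 24 changes of the relatives, the count called higher was 5 with array weights (MTL1 with carbofuran and diuron, MID2 with alachlor, carbofuran and MCPA-ME), and 2 both in each pesticide's own 6 arrays and without the 2 arrays farthest from their groups. The count called lower ranged from 1 to 3 with single arrays left out. Changes of genes that were not called turned sign as follows. Quantile normalization gave WSC2 -0.014 and MTL1 -0.043 with alachlor, MID2 -0.019 with diuron and MID2 0.0093 with S-metolachlor. Median centring gave WSC2 -0.022 with alachlor and MID2 0.0088 with S-metolachlor. All 18 controls as 1 group gave WSC3 0.11 and MTL1 -0.29 with alachlor, MID2 -0.10 with carbofuran, MTL1 -0.35 with diuron, MID2 0.23 and MTL1 1.30 with pyrimethanil, and MID2 0.013 with S-metolachlor. Array weights gave WSC2 -0.025, WSC3 0.0095 and MTL1 -0.020 with alachlor, WSC2 0.12 and MTL1 0.26 with MCPA-ME, and MID2 0.032 with S-metolachlor. Without the pair of far arrays, carbofuran IC20 1 and MCPA-ME IC20 2, WSC2 was 0.17 and MTL1 0.25 with MCPA-ME. With single arrays left out, the changes with alachlor ranged from -0.10 to 0.10 for WSC2, -0.19 to 0.10 for WSC3, -0.0045 to 0.14 for MTL1 and -0.072 to 0.029 for SLG1. Those with MCPA-ME ranged from -0.33 to 0.17 for WSC2, -0.037 to 0.24 for MID2 and -0.32 to 0.25 for MTL1. SLG1 with carbofuran ranged from -0.016 to 0.17, MID2 with diuron from -0.019 to 0.040, MTL1 with pyrimethanil from -0.14 to 0.027 and MID2 with S-metolachlor from -0.089 to 0.078. The adjusted p of the F test among WSC2 controls ranged from 0.00323 to 0.0973. Called tests over the 6 pesticides rose with array weights from 35 to 63 for the signalling genes, from 31 to 60 for the Rlm1 targets and from 5 to 9 for the O-mannosyltransferases, which ranged from 3 to 6 with single arrays left out. The other sensors had 4 in each pesticide's own arrays, in place of 7. The cause of these shifts was not tested. With the replicate number within each pesticide as a block, no call of the relatives changed: MTL1 with carbofuran had an adjusted p of 0.000791, and 1 of 24 was called higher and 2 lower.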
